A study of Homo sapiens with 16 samples.

Results

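Keratins are the intermediate filament proteins of epithelial cells, and 10 keratin genes of the mammary epithelium were followed in MCF10A cells during inhibition of the HER2 receptor kinase. The genes KRT5, KRT6A, KRT6B, KRT7, KRT14, KRT15, KRT16, KRT17, KRT18 and KRT19 were chosen by name, and every array row carrying one of these symbols was kept on its own. This gave 11 rows for 10 genes, of 20589 rows for 18190 gene symbols on the array, with KRT18 present as 2 rows. MCF10A (MCF-10A in the labels) is an immortalized, nontransformed line of human breast epithelial cells, grown here in a serum-free medium with hydrocortisone, insulin and epidermal growth factor. CP724,714, an inhibitor of the HER2 tyrosine kinase, was given at 1 µM, and RNA was taken from parallel cultures every 3 hours up to 45 hours. Each of the 16 time points was measured on 1 Illumina human Ref8v2 array, the 0 hour array being the untreated culture. All cultures were of this single line in the same medium, which was changed the day after plating and again when treatment began. No culture without inhibitor was measured at a later hour, so the drug, the fresh medium and the time in culture cannot be told apart.

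Keratin filaments are built from obligate pairs of one type I and one type II protein. Basal cells of stratified and glandular epithelia make the pair KRT5 (type II) and KRT14 (type I), and KRT15 is a further type I keratin of basal cells. KRT6A and KRT6B (type II) with KRT16 and KRT17 (type I) are the keratins that epidermal cells switch on after wounding and under growth factor stimulation. KRT8 and KRT7 (type II) with KRT18 and KRT19 (type I) form the filaments of simple epithelia, including the luminal cells of the breast. In culture, breast epithelial lines often carry both basal and simple keratins.

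Only KRT5 among the 10 genes had an entry in the RefSeq promoter table used here, whose windows run from 250 bases before to 50 bases after the start of a gene. Its window is shown because KRT5 is the basal keratin of this set and its RNA varied little over the 45 hours. That of KRT10, a type I keratin of differentiating epidermis outside the set, is shown because its RNA fell (values are given further on). Only the keratin windows of KRT5, KRT8 and KRT10 were examined one by one, and of these KRT10 alone held one of the motifs searched. The KRT5 window lies at chr12:52520345-52520644 and the KRT10 window at chr17:40822565-40822864, both on the minus strand of GRCh38.p14. Capitals mark a match to TATAAA, the core of the TATA box.
KRT5: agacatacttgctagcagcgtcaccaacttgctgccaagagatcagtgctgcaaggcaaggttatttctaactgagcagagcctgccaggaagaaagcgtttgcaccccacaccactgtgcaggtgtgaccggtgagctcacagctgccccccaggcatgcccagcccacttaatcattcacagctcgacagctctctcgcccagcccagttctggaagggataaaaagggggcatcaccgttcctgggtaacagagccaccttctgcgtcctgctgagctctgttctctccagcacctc
KRT10: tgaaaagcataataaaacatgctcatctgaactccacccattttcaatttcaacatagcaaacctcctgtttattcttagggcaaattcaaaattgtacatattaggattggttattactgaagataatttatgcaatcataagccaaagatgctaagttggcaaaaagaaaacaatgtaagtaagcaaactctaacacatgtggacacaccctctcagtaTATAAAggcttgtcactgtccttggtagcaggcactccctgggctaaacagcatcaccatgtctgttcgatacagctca

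Both strands of these windows were searched for that motif, for the AP-1 site written as TGANTCA, for the AP-2 site written as GCCNNNGGC and for the Sp1 site written as GGGCGG. Of 35116 promoter windows of this length, 11.5% held the TATA motif, 7.71% the AP-1 motif, 23.2% the AP-2 motif and 45% the Sp1 motif. The KRT5 window held none of the 4, and that of KRT10 held TATAAA at position -29 from the start. A match is a description of the letters and not of a binding site.

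The labelled cell type was checked first. KRT5 and KRT17, markers of basal breast cells, were bright on all 16 arrays, and the simple keratins KRT7, KRT8 and KRT18 were above background on all 16. KRT14 was not: its intensity lay between 164 and 258, and it was above background (detection p under 0.05 against the negative control beads) on 1 array of 16, that of 6 hours. TP73L, the older symbol of TP63 and a transcription factor of basal cells, was above background on 0 of 4 arrays at 0 to 9 hours and on 4 of 4 at 36 to 45 hours, and the row for the basal integrin ITGA6 on none. The luminal hormone receptors ESR1 and PGR were not above background on any array, while the luminal factors FOXA1 and GATA3 were above it on 16 and 15 arrays and GATA3 rose by 0.86 between the first 4 and last 4 arrays (limma adjusted p = 0.015). Of the markers of other cells, 3 of 3 adipocyte genes and 6 of 7 fibroblast genes were never above background. Of the leukocyte markers reported here, CD3E was at background on all arrays. The PTPRC rows were above background on at most 5 arrays, while CD68 rose by 0.68 on the log2 scale (SE 0.16, limma adjusted p = 0.0027) and CD14 went from 0 of 4 arrays above background at 0 to 9 hours to 4 of 4 at 36 to 45 hours. The summed intensity of the 6 rows of these markers was between 1664 and 2091 at 0 to 9 hours and between 2179 and 2476 at 36 to 45 hours. Of the 4 endothelial genes VWF and CDH5 were never above background, KDR was above it on 15 arrays and PECAM1, also on 15, rose by 0.84, and the 4 rows summed to between 844 and 894 at 0 to 9 hours and between 775 and 915 at 36 to 45 hours. The part of any other cell type in the keratin values was not tested. RNA was measured on whole cultures, in which fewer cells of a kind and less RNA per cell cannot be told apart.

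The arrays were of similar brightness, with median intensities of 210.4 to 254 and 10325 to 10889 rows above background (50.1% to 52.9%). Over the 6719 single-probe rows that were never above background, arrays deviated from the row means with a mean correlation of -0.04 within the first 8 arrays, -0.04 within the last 8 and -0.09 between both sets. The labels name no chip or hybridization day for either set. Taking deviations from row means makes such correlations negative on average, so only the small gap between the values within and between sets can be read. A comparison across the boundary between 21 and 24 hours carries any difference between the sets. The part of such a difference in the results was not tested beyond the values given below.

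Intensities below are as deposited and contain background, inferred at 166 to 199. Tests and differences are on the log2 scale after background correction and quantile normalization. Of 11 keratin rows, 10 were above background on at least 3 arrays and were tested with the 11957 rows that met this filter. KRT14 was not. As no time point had a second array, the time points were tested in 4 windows of 4 consecutive arrays (0 to 9, 12 to 21, 24 to 33 and 36 to 45 hours) and by a smooth curve over time. The p-values therefore measure differences against the spread between neighbouring time points, not between replicate cultures.

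**Figure D1:**
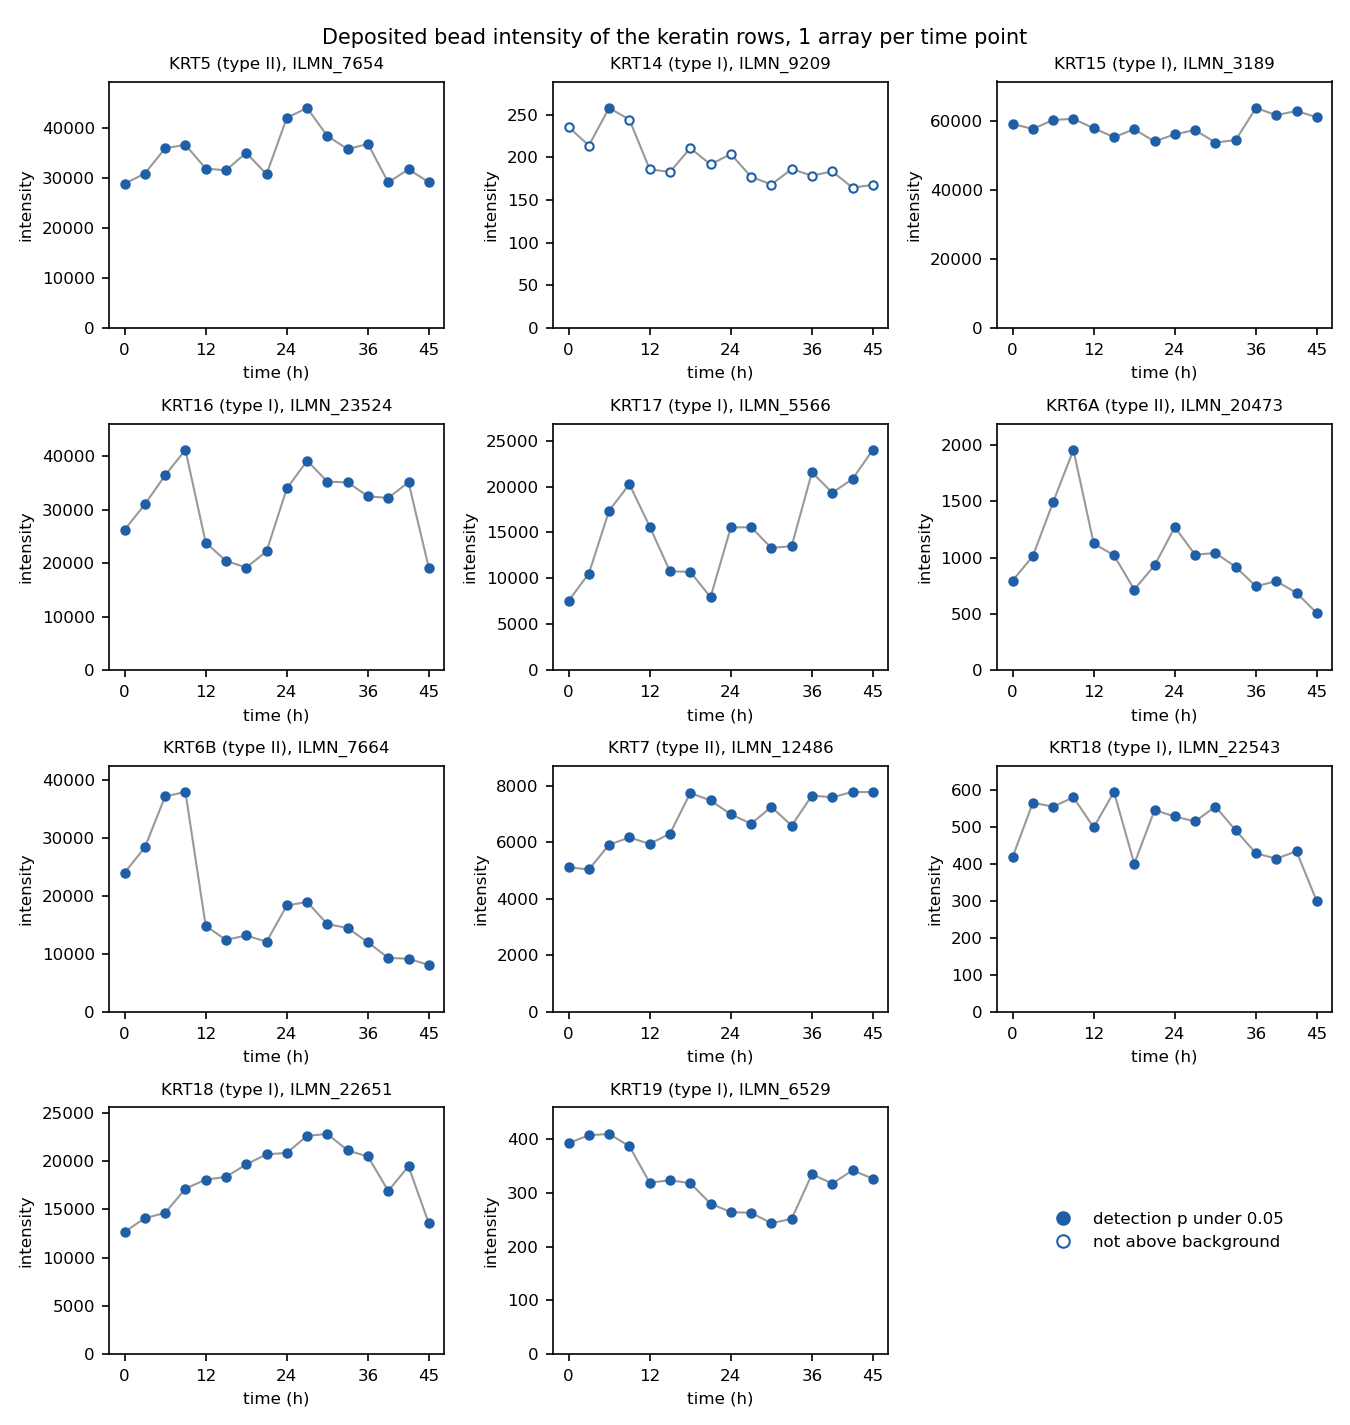
Deposited intensity (linear scale, background included, each panel with its own axis from 0) of the 11 keratin rows against time in hours, with 1 array per time point. Filled points are above background and open points are not. KRT6B dropped between 9 and 12 hours, KRT17 had its highest value at 45 hours, and KRT14 stayed between 164 and 258.

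KRT6B, a type II keratin of the wound response, changed most among the 10 tested rows between the first and last windows. Its intensities at 0, 3, 6 and 9 hours were 24061, 28408, 37222 and 38000.0. At 12 to 21 hours they were 14873, 12465, 13229.6 and 12141. All 4 values of the second window lay under all 4 of the first. At 24 to 33 hours the values were 18397, 19012, 15174 and 14509, above each of the 4 before except that the last lay under the 14873 of 12 hours. At 36 to 45 hours they were 12031, 9364, 9199 and 8129, the 4 lowest of the series. On the log2 scale the window means were 14.96 ± 0.35, 13.67 ± 0.19, 13.89 ± 0.17 and 13.29 ± 0.16 (SD over 4 time points). KRT6B fell by 1.68 between the first and last windows (SE 0.14, a 3.20-fold decrease, limma adjusted p = 2.7e-07). It kept its direction and its call when any one array was left out, with a difference between -1.83 and -1.58.

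KRT6A, the closely related type II partner of KRT16 and KRT17, also rose up to 9 hours and ended under its untreated value. Its intensities were 795, 1014, 1494 and 1958 at 0 to 9 hours, and the last of these was the highest of the series. They were 1126, 1021, 717 and 931 at 12 to 21 hours and 1271, 1026, 1041 and 918 at 24 to 33 hours. The values at 36 to 45 hours were 745, 791, 687 and 507. All 4 lay under the untreated array, that of 39 hours by the least, and after normalization the 39 hour value lay just above it (9.39 against 9.37). KRT6A fell by 1.10 between the first and last windows (SE 0.26, 2.14-fold, limma adjusted p = 0.0034). The first window spread widely (mean 10.12 ± 0.64, SD over 4 time points), with KRT6A 2.75-fold higher at 9 than at 0 hours.

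KRT16, the type I partner of KRT6, had intensities of 26252, 31034, 36469 and 41222 at 0 to 9 hours. At 12 to 21 hours they were 23861, 20453, 19198 and 22228, all under the untreated value. At 24 to 33 hours they were 34003, 39193, 35291 and 35146, and at 36 to 45 hours 32542, 32231, 35169 and 19159.6. The course was thus high, low and high again, with a single low array at the end. KRT16 fell by 0.65 from the first to the second window (SE 0.15, 1.56-fold, limma adjusted p = 0.0039). Its difference between the last and first windows was -0.18, with a 95% interval of -0.50 to 0.14 (limma adjusted p = 0.38). When the change between the means of 12 to 21 and 24 to 33 hours was left out, that difference was -0.80. It was then called (limma adjusted p = 0.019). KRT16 did not pass the test of the smooth curve (adjusted p = 0.31) but was called by a more flexible curve (adjusted p = 0.00048) and when the 0 or the 9 hour array was left out (adjusted p = 0.017 and 0.033).

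KRT17, a type I keratin of basal cells and of the wound response, was the member with the highest late values relative to the start. Its intensities at 0 to 9 hours were 7561, 10517, 17390.4 and 20259. They were 15649.6, 10757, 10714 and 7942 at 12 to 21 hours, so that the 21 hour array was again near the untreated one. They were 15546, 15574, 13316 and 13511 at 24 to 33 hours and 21560.3, 19337, 20825 and 24000.1 at 36 to 45 hours. KRT17 thus had a first peak at 9 hours, 2.76-fold above 0 hours, returned to 1.02-fold at 21 hours, and reached 3.36-fold at 45 hours. It was higher in the last window than in the first by 0.69 (SE 0.25, 1.61-fold, limma adjusted p = 0.042). That call was lost in 12 of the 16 fits that left out one array, in which the difference lay between 0.42 and 0.90 and the adjusted p between 0.0064 and 0.12. Part of the course fell on the boundary between the first 8 and last 8 arrays. KRT17 stepped up there by 0.84 between 21 and 24 hours. The means of 12 to 21 and 24 to 33 hours, on either side of it, differed by 0.27. With that change of means left out, the last against first difference was 0.42 (limma adjusted p = 0.48).

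**Figure D2:**
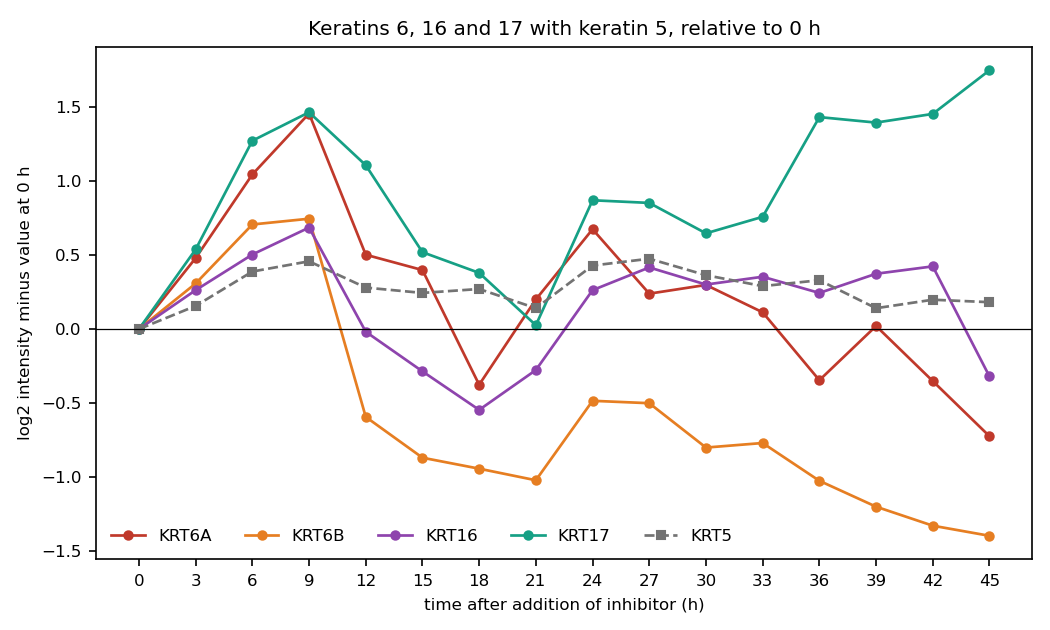
Log2 intensity minus its value at 0 hours (vertical axis) against hours after addition of inhibitor, for KRT6A, KRT6B, KRT16 and KRT17 and, dashed, KRT5, with 1 array per point. All 5 were above their 0 hour value at 9 hours. At 45 hours KRT17 was above it and KRT6A, KRT6B and KRT16 were below.

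The early part of these courses was tested with pairs of neighbouring arrays, a comparison chosen after the values were seen. From 0 and 3 hours to 6 and 9 hours, 4 of 10 keratin rows rose and none fell, where 24.7% of all tested rows changed, 13.2% higher and 11.5% lower. KRT17 rose by 1.10 (SE 0.18, limma adjusted p = 0.00025) and KRT6A by 1.01 (SE 0.22, adjusted p = 0.0028). KRT6B rose by 0.57 (SE 0.10, limma adjusted p = 0.00045), and the basal KRT5 by 0.35 (SE 0.07, adjusted p = 0.0021). KRT16 differed by 0.46 and did not pass (limma adjusted p = 0.055). From 6 and 9 hours to 12 and 15 hours, 5 of 10 rows fell and none rose, where 21.7% of all tested rows changed, 10.5% lower and 11.2% higher. KRT6B fell by 1.46 (SE 0.10, limma adjusted p = 1.9e-07), KRT6A by 0.80 (adjusted p = 0.016) and KRT16 by 0.75 (adjusted p = 0.0052). The type I keratins KRT19 and KRT17 fell by 0.57 and 0.56 (limma adjusted p = 0.028 and adjusted p = 0.032). Without the 15 hour array 1 of these 5 calls was left. The 0 hour array is the only untreated one and lies in the first pair.

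KRT5, the main type II keratin of basal cells, had intensities between 28830.1 (0 hours) and 43969 (27 hours), with a median of 33440.1. Its window means were 15.02 ± 0.21, 15.01 ± 0.06, 15.16 ± 0.08 and 14.99 ± 0.08 (SD over 4 time points). The intensities of the third window lay above all 4 of the second, and every other pair of windows overlapped. The last window differed from the first by -0.04, with a 95% interval of -0.20 to 0.13 (limma adjusted p = 0.75). KRT5 did not pass the test of the smooth curve (adjusted p = 0.15), and was called by a more flexible curve (adjusted p = 0.0015), with median scaling (adjusted p = 0.026) and without the 21 hour array (adjusted p = 0.038).

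KRT15, a type I keratin of basal cells, had intensities between 53697 and 63713, close to the top of the scale on these arrays (68886), and whether its differences were compressed there was not tested. In intensity the 4 arrays of 36 to 45 hours (63713, 61627, 62833 and 61009) lay above all other arrays. After normalization the 45 hour value (15.88) lay under those of 6 and 9 hours (15.89 and 15.91). KRT15 was higher there than at 24 to 33 hours by 0.20 (SE 0.03, 1.15-fold, limma adjusted p = 0.00018). Against the first window it differed by 0.04 (95% interval -0.03 to 0.11), and with median scaling by 0.18, which was called (limma adjusted p = 0.011).

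KRT7, a type II keratin of simple epithelia, increased over the series. Its intensities were 5116, 5039, 5915 and 6169.7 at 0 to 9 hours and 5943, 6305, 7741 and 7478 at 12 to 21 hours. They were 6987, 6654, 7249 and 6587 at 24 to 33 hours and 7652, 7588, 7779 and 7771 at 36 to 45 hours. The last window lay above all 4 values of the first and of the third. KRT7 rose by 0.48 from the first to the last window (SE 0.08, 1.39-fold, limma adjusted p = 0.00015), a call kept in each of the 16 fits that left out one array. The rise from the first to the second window, 0.21, had an adjusted p of 0.049 and was lost in 11 of those fits.

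KRT19, the smallest type I keratin, found in luminal cells, had a course with a minimum in the middle. Its intensities were 393, 407, 409.9 and 387 at 0 to 9 hours, and 319, 324, 318 and 280.2 at 12 to 21 hours. They were 264, 263, 244 and 252 at 24 to 33 hours and 335, 317, 342 and 327 at 36 to 45 hours. In intensity the first window did not overlap any other, and the third lay under all others. After background correction and normalization the 24 hour value (6.75) lay just above that of 21 hours (6.73). KRT19 fell by 0.76 from the first to the second window (SE 0.14, limma adjusted p = 0.00048) and rose by 0.85 from the third to the last (SE 0.14, 1.80-fold, adjusted p = 9.3e-05). The last window stayed 0.42 under the first (SE 0.14, limma adjusted p = 0.025). That call was lost in 3 of the 16 fits that left out 1 array. Between the means of 12 to 21 and 24 to 33 hours KRT19 differed by -0.50 (limma adjusted p = 0.48). With that change left out, the last against first difference was 0.09 in the other direction (limma adjusted p = 0.82). KRT19 was dim, and a large share of its intensity was background: its highest array was 1.68 times its lowest in intensity and 2.91 times after background correction and normalization.

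KRT18, the type I partner of KRT8 in simple epithelia, was represented by a bright row that combines several probes and by a dim single-probe row, and these disagreed. The bright row had intensities of 12658, 14087, 14625 and 17142 at 0 to 9 hours and rose to its highest value, 22814, at 30 hours. It ended at 20476, 16914, 19459 and 13548 at 36 to 45 hours. The dim row lay between 299 at 45 hours and 594 at 15 hours, with 399.8 at 18 hours between 594 and 545 on the arrays beside it. From the first to the last window the bright row rose by 0.26 (SE 0.09, limma adjusted p = 0.033) and the dim row fell by 0.66 (SE 0.21, limma adjusted p = 0.022). The call of the bright row was lost in 5 of the 16 fits that left out one array and that of the dim row in 3. Both calls were lost without the step between 21 and 24 hours (0.18, adjusted p = 0.38, and -0.71, adjusted p = 0.12, by limma) and with the 8 arrays compared alone (limma adjusted p = 0.13 and 0.051), and that of the dim row with median scaling (adjusted p = 0.078). The bright row had its main rise by the second window, 0.35 (SE 0.09, limma adjusted p = 0.0067). Over the 16 arrays the rows correlated with r = 0.18, and the dim KRT18 row correlated with KRT6A at r = 0.83. The change of KRT18 RNA as a whole is therefore uncertain. KRT8, its type II partner, differed by -0.20 between the last and first windows (95% interval -0.40 to 0.01, limma adjusted p = 0.13).

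**Figure D3:**
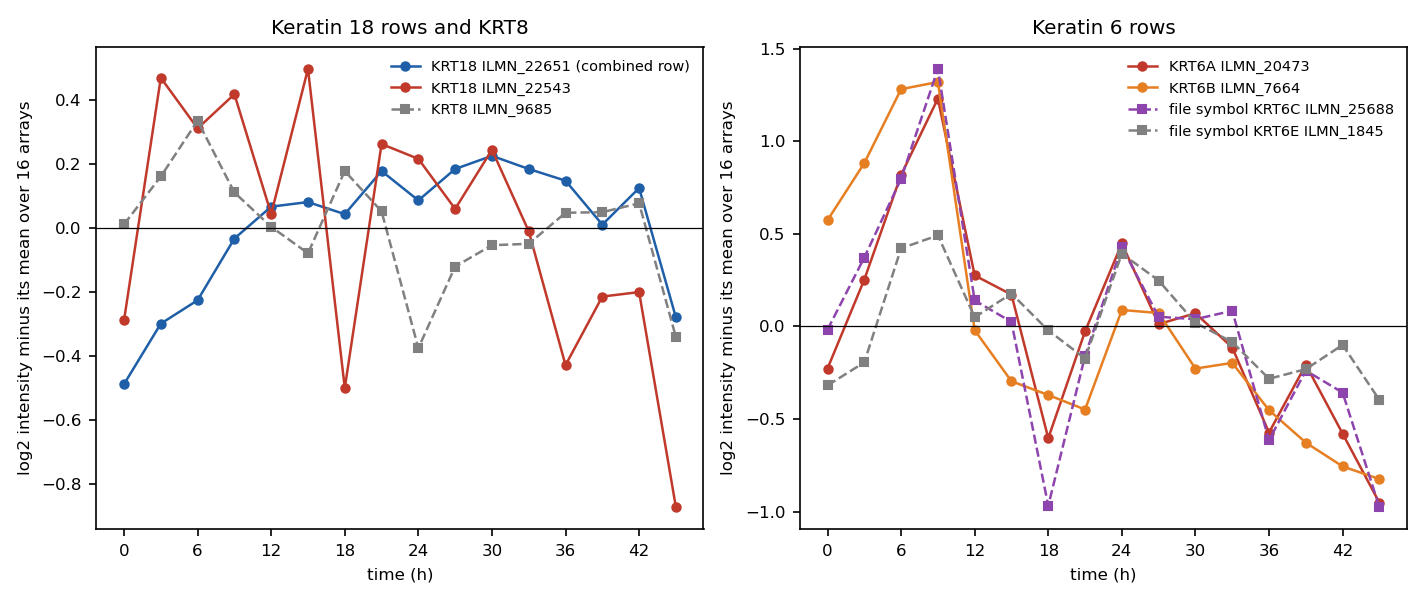
Log2 intensity minus its mean over the 16 arrays (vertical axis) against time in hours, for the 2 KRT18 rows with KRT8 (left) and for KRT6A and KRT6B with the rows whose file symbols are KRT6C and KRT6E (right). The KRT18 rows ended 0.26 above and 0.66 below their first window, and all 4 keratin 6 rows were highest at 9 hours.

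Rows of near-identical keratin 6 genes can share RNA on an array, and the probe sequences were not used here. The row whose file symbol is KRT6C tracked KRT6A over the 16 arrays (r = 0.97) and fell by 1.18 between the first and last windows (SE 0.26, limma adjusted p = 0.0023). KRT6C is both a current symbol and an older name of KRT6A, so which gene this row measures is not settled. The row named KRT6E, an older name of the current KRT6C, differed by -0.35 and did not pass (limma adjusted p = 0.084). KRT6A, KRT6B and these rows may therefore not be independent measurements of separate genes.

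Counted over the set, 7 of 10 keratin rows changed between 0 to 9 and 36 to 45 hours, 3 higher (KRT7, KRT17 and the bright KRT18 row) and 4 lower (KRT6A, KRT6B, KRT19 and the dim KRT18 row). Of all 11957 tested rows 31.2% changed, 16.2% higher and 15% lower. With arrays scaled by their medians in place of quantile normalization, KRT15 gained a call (higher) and KRT19 and the dim KRT18 row lost theirs. The share of all rows called with median scaling is not given here. The median difference of the 10 rows was -0.11, and that of all tested rows was -0.02. By the smooth curve 8 of 10 keratin rows varied with time, where 54.6% of all rows did. KRT5 and KRT16 were the 2 that did not pass, and the more flexible curve called both. The share of all rows called by that curve is not given here.

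From one window to the next the calls were as follows. From the first to the second window 5 of 10 rows changed (29.5% of all rows, 15.1% higher and 14.4% lower), with KRT7 and the bright KRT18 row higher and KRT6B, KRT16 and KRT19 lower. From the second to the third window no keratin row passed limma's adjusted threshold, where 0.0251% of all rows did. At an unadjusted p under 0.05, KRT15, KRT16 and KRT19 passed there, 3 of 10, where 4.89% of all rows did. KRT16 was higher by 0.62 across this boundary (limma adjusted p = 0.32). With median scaling it was called, at 0.78 (limma adjusted p = 0.036). From the third to the last window 7 of 10 rows changed (38% of all rows, 19.3% higher and 18.7% lower), KRT7, KRT15, KRT17 and KRT19 higher and KRT6A, KRT6B and the dim KRT18 row lower. In this last comparison KRT17 rose by 0.73 (limma adjusted p = 0.027) while KRT6A fell by 0.68 (adjusted p = 0.044) and KRT6B by 0.60 (adjusted p = 0.0026). Of the 16 fits that left out one array, 8 lost the call of KRT6A here, 7 that of the dim KRT18 row and 3 that of KRT17. With median scaling KRT7 (0.19, limma adjusted p = 0.12) and KRT17 (0.59, adjusted p = 0.057) lost their calls, and KRT5 (-0.32, adjusted p = 0.005) and the bright KRT18 row (-0.31, adjusted p = 0.011) gained one.

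**Figure D4:**
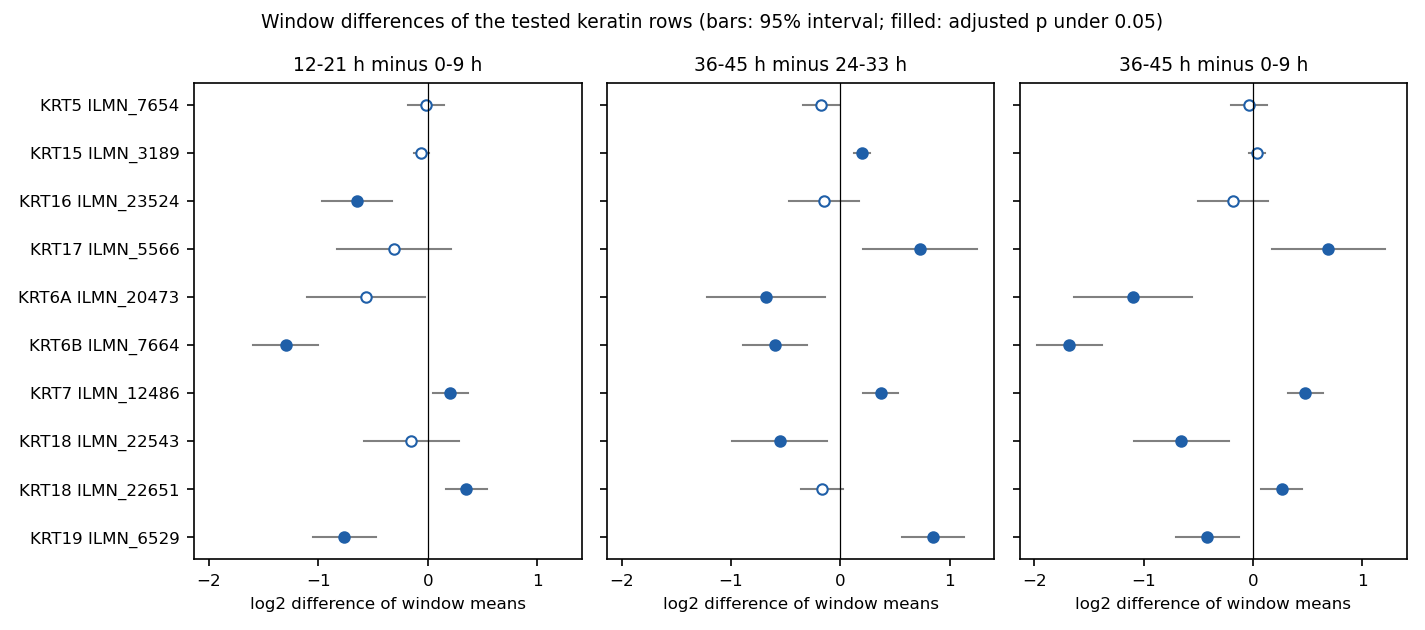
Difference of window means on the log2 scale (horizontal axis) for the 10 tested keratin rows (vertical axis) in 3 comparisons, with bars for the 95% interval and filled points for an adjusted p under 0.05. KRT6B lay at -1.30, -0.60 and -1.68 and KRT19 at -0.76, 0.85 and -0.42.

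Single steps between consecutive arrays were counted at 1.7-fold, the fold that the study's methods use for another line. Of 150 keratin steps 6 passed it (4%), where 2.42% of all steps did. KRT6B (-1.34) and KRT6A (-0.95) stepped down between 9 and 12 hours, an interval in which 7.36% of all rows passed. KRT6A (-0.78) and the dim KRT18 row (-0.996) stepped down between 15 and 18 hours (1.2% of all rows), and both were higher again on the 21 hour array. KRT17 stepped up between 21 and 24 hours (0.953% of all rows). KRT19 stepped up by 0.78 between 33 and 36 hours (6.39% of all rows). These steps rest on 1 array on each side and have no test. Over the whole series, 6 of 10 rows (KRT6A, KRT6B, KRT16, KRT17, KRT19 and the dim KRT18 row) had a highest array at least 2-fold above their lowest, where 40.5% of all tested rows did.

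The courses of keratin rows, of the same type and of opposite types, are set side by side as correlations. KRT6A and KRT6B correlated with each other (r = 0.82) and had r = -0.02 and -0.09 with KRT17 over the whole series. KRT16 correlated with KRT6A at r = 0.53 and with KRT6B at r = 0.48. The type II keratin KRT7 had r = -0.05 with KRT19 and r = 0.26 with the bright KRT18 row. After each array's deviation from its own window mean was taken, KRT17 and KRT6B correlated at r = 0.83 and KRT5 and KRT6B at r = 0.90. KRT19 and the bright KRT18 row ran in opposite directions (r = -0.82), and KRT15 and KRT19 together (r = 0.79). Each correlation is over the same 16 arrays, which share their normalization and the order in time, and is given as a description.

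**Figure D5:**
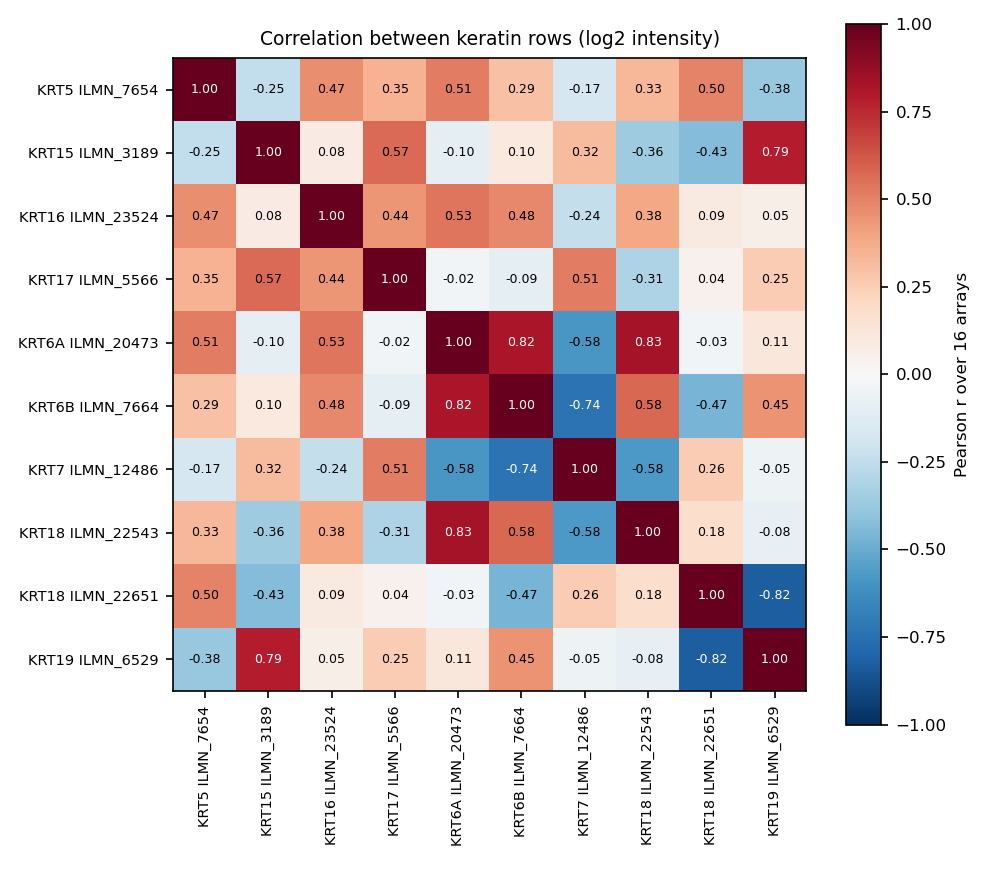
Pearson correlation of log2 intensity over the 16 arrays between the 10 tested keratin rows (both axes), from -1 (blue) to 1 (red). KRT6A correlated with the dim KRT18 row at 0.83 and with KRT6B at 0.82, and KRT19 with the bright KRT18 row at -0.82.

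For KRT6A, KRT6B and KRT17, the 3 genes with the largest ratio of highest to lowest array, the most similar rows of other genes were named by Pearson correlation over the 16 arrays. For KRT6A they were the KRT6C row (0.97), ABHD11 (0.94) and C14orf100 (0.92). For KRT6B they were ANXA2, a calcium-dependent membrane-binding protein (0.95), TMED9, a cargo protein of the early secretory pathway (0.94), and CHMP6, a subunit of the ESCRT machinery (0.94). For KRT17 they were KIAA1838 (0.93), PPCS, an enzyme of coenzyme A synthesis (0.92), and TCEAL3 (0.91).

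Of 37 further keratin genes on the array 22 were never above background, and 12 rows were tested. None was higher in the last window than in the first and 5 were lower, with a median difference of -0.25, where 16.2% of all tested rows were higher and 15% lower. After the KRT6C row the largest falls were those of KRT9 (-0.67) and the hair keratin KRTHA1 (-0.50), both dim. The others, named after their values were seen, were KRT10, which fell by 0.43 (SE 0.08, limma adjusted p = 0.00062), and KRTHB1. KRTHB1, a hair keratin symbol shared by more than 1 current gene, had intensities of 42722 to 57107 and fell by 0.16.

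The proteins of desmosomes and their linkers anchor keratin filaments to the membrane. Of 20 tested rows for linkers and desmosome genes, 4 were higher in the last window and 2 lower, with a median of -0.08, a share close to the 31.2% of all tested rows. PPL, which encodes periplakin, a linker between keratin filaments and the cell envelope, rose by 1.01 (SE 0.11, limma adjusted p = 2.1e-06). PKP2 and PKP4, plakophilins of cell junctions, rose by 0.53 and 0.37. PERP, a desmosomal membrane protein and the other of the 4, was named after its values were seen and rose by 0.36. PKP3 fell by 0.61. The rows of JUP (plakoglobin) disagreed, one falling by 0.97 (limma adjusted p = 0.0022) and the other differing by -0.09.

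Of 24 tested rows for transcription factors known to act on keratin genes, 5 were higher in the last window and 2 lower, with a median of 0.18, again close to the 31.2% of all tested rows. ELF3, an epithelial ETS factor, rose by 2.17 (SE 0.49, limma adjusted p = 0.0028), and CEBPD by 1.03. FOSL1, a subunit of AP-1, fell by 1.77 (SE 0.29, limma adjusted p = 0.00019), and GRHL1 by 0.46. TP73L, with its first window at background, was also called higher, as were GATA3 and TFAP2C, both named after their values were seen. Of 6 tested rows for other intermediate filament genes, 3 were lower and none higher (15% and 16.2% of all tested rows), namely the nuclear lamins LMNA (-0.66), LMNB1 (-0.81) and LMNB2 (-0.57). VIM, the mesenchymal filament protein vimentin, named after its values were seen, was dim and differed by -0.17 (limma adjusted p = 0.47).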

How the data were processed

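Expression was measured in MCF10A cells on Illumina human Ref8v2 arrays at 16 time points, 1 array each. The authors deposited intensity values per row on a linear scale, not normalized between arrays, with detection p-values measured against negative control beads. The summary software and annotation build are not given in the sources used here. The study's methods state quantile normalization.

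The background level was estimated with normexp from the detection p-values of the 19092 single-probe rows (708 times each p-value within 0.001 of a whole number). The offset was 16, followed by quantile normalization and log2, in R 4.3.3 with limma 3.58.1. The offset understates changes of dim rows. The 11957 rows above background (p under 0.05) on 3 or more of the 16 arrays were tested with a natural cubic spline (3 degrees of freedom) and window contrasts (lmFit, eBayes with trend), adjusted by Benjamini-Hochberg over all tested rows at 0.05. The comparisons of pairs of arrays were added after the values were seen. Figures were drawn with matplotlib 3.10.9.

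The keratins and the gene lists were chosen with earlier results of these data known, and no set was tested. Named genes were all keratin rows, the cell type markers, KRT8 and KRT6C, up to 3 risen and 3 fallen genes by size from each list, and, for the 3 keratins with the largest ratio of highest to lowest array, the 3 most correlated rows of other genes. Other genes named after their values were seen are marked as such. All 10 keratin symbols were current in the RefSeq gene table; of 37 others, 12 were current and 23 were synonyms of 1 gene. In simulated data of 11957 rows, 200 were given a straight-line change of 1 on the log2 scale from 0 to 45 hours. The last against first window contrast recovered 78.5% of these, with 7 false calls among the unchanged rows. The simulated noise was independent between arrays, so drift shared by neighbouring arrays was not covered. With 1 array per time point the number of arrays limits the precision. Alternatives were other background corrections, offsets, scalings, filters, curves, and each array left out. Some marker genes are not reported here, and the summed leukocyte intensity leaves them out.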

Additional observations from a re-analysis of the deposited data

How the results depend on the processing

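No paired analysis was possible because each time point had 1 array, and the shared replicate number is the same for all. Of 6 steps past 1.7-fold, 3 remained in number without background correction and 1 at a threshold of 2-fold. A straight line in time called 3 keratin rows in place of 8 by the spline (all rows: 1953 in place of 6533). With the 8 arrays compared alone, 3 rows changed between the first and last windows in place of 7 (all rows: 2475 in place of 3730), which leaves fewer arrays to estimate the spread, and 4 without the step between 21 and 24 hours (all rows: 1617). With median scaling 1 row changed from the second to the third window in place of 0 (all rows: 11 in place of 3). Directions turned for small differences: with median scaling KRT5 was at 0.0439 in the last against the first window and 0.0288 in the second against the first, KRT7 at 0.0341 and KRT15 at 0.00263 in the third against the second, and the dim KRT18 row at 0.000495 at 12 and 15 against 6 and 9 hours. With cyclic loess KRT7 was at -0.00207 in that last comparison, KRT5 was at 0.112 between 0 and 3 and 42 and 45 hours, and KRT19 at 0.0873 without the step. The cause was not tested.

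Leaving out each array in turn gave 6 to 9 rows by the spline, 3 to 7 for the last against the first window, 4 to 6 for the second against the first, 0 for the third against the second, 4 to 8 for the last against the third, 3 to 6 for the early rise and 1 to 5 for the fall after it. The fewest calls for the last against the first window came without the 3 hour array (3) and without 36 or 39 hours (4), and for the last against the third without 30 or 45 hours (4). Without the 6, 9 or 12 hour array 3 rows fell after the early rise. Directions turned for KRT5 (last against first, -0.122 to 0.0311, and second against first, -0.1 to 0.0524), for the dim KRT18 row (early rise, -0.105 to 0.653, fall after it, -0.321 to 0.132, second against first, -0.324 to 0.0402, and 24 to 33 against 12 to 21 hours, -0.14 to 0.192), for KRT7 (fall after it, -0.0474 to 0.0493), for KRT6A (24 to 33 against 12 to 21 hours, -0.0358 to 0.257) and for KRT16 (last against the third window, -0.234 to 0.0137).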
